A study of Homo sapiens and Mus musculus with 13 samples.

Results

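The proteasome subunit genes are the genes whose symbols run from PSMA to PSMG followed by a number, and they were taken here from both expression tables of a breast cancer study on TRIM11 and KDM5C. Members were chosen by symbol alone, and PSMB8, PSMB9 and PSMB10, the inducible subunits of the immunoproteasome, were left out. The rule found 45 members among 24523 human symbols and 45 among 55228 mouse symbols, and 43 of them in each species passed the filter of a mean of at least 0.5 FPKM. FPKM counts sequenced fragments relative to transcript length and library size, a level per length, so levels of different genes can be set beside each other within a table. The 2 members that did not pass are the same in both species. PSMA8, an alpha subunit of the testis, was listed at 0 in all 7 human libraries, and PSMB11, the beta subunit of the thymus, reached 0.028 FPKM in 1 of them. The symbols PSMC3IP, PSMD5-AS1, PSMG3-AS1 and PSMD6-AS2 and 6 mouse symbols of the same kind, pseudogenes among them, hold more letters after the digit and were not members.

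The human samples were 7 lines derived by lentiviral CRISPR/Cas9 from MDA-MB-231, breast cancer cells without estrogen and progesterone receptors, and selected with puromycin. The Control line carried a guide against GFP, TRIM11-KD lines 1 and 2 carried TRIM11 guides 1 and 2, and KDM5C-KD lines 1 and 2 carried KDM5C guides 1 and 2. The DKD lines, in which both genes were targeted, carried TRIM11 guide 1 or 2, and both carried KDM5C guide 2. The mouse samples were mammary tumors of 3 month old female mice, 3 Trim11+/+ and 3 Trim11+/-. All 6 mice came from crosses of FVB/N-Tg (MMTV-PyVT) 639Mul/J with C57BL/6N mice, as the labels spell the strain (the study's methods give another number before Mul/J), and carried the PyVT transgene, whose MMTV promoter drives the oncogene in mammary epithelium. The Trim11+/- mice lacked exons 2 to 6 of 1 Trim11 copy in every cell of the body. The 2 lines of a knockdown group carried different guides, apart from the shared KDM5C guide 2 of the DKD lines, so the spread within a group includes differences between guides. The labels name no repeat culture of a line, and p-values among the lines measure only the spread between these samples.

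The 26S proteasome degrades proteins that carry ubiquitin chains. Its 20S core is a barrel of alpha and beta rings with the active sites on the inner face of the beta subunits, and the 19S cap binds ubiquitin, removes it, unfolds the substrate with a ring of ATPases and threads it into the core. Dedicated chaperones build both parts, other caps can replace the 19S, and the subunit genes are known to be switched on together by the transcription factor NFE2L1 when proteasome capacity falls short. TRIM11, a ubiquitin ligase, has been linked to proteasome activity, so its knockdown and deletion pose the question whether the mRNAs of the subunits differ.

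Trim11 had 35.8, 36.3 and 39.2 FPKM in the Trim11+/+ tumors and 24.0, 22.8 and 22.9 FPKM in the Trim11+/- tumors, with no overlap between genotypes. In the lines TRIM11 mRNA had 12.6 FPKM in Control, 10.6 in TRIM11-KD 2 and 9.38 in DKD 2. It was not below Control in the libraries labelled TRIM11-KD 1, with 13.4 FPKM, and DKD 1, with 16.1 FPKM. These comparisons are therefore named by guide and label. The study checked its knockdown lines by western blotting, which measures protein, while the values here are mRNA. KDM5C had 30.3 FPKM in Control and between 18.8 and 22.7 in the 4 lines with a KDM5C guide. The tumor libraries held between 8793199 and 11117125 reads, which gave a tested member between 59 and 4302 reads per tumor. The depth of the human libraries is unknown. Of the markers of the labelled tissue and line, Epcam had between 408 and 493 FPKM in the tumors, and VIM between 1038 and 1309 FPKM in the lines. Of 4 genes listed as absent from the line, PGR was listed at 0 in all 7 lines and ESR1 reached 0.0234 FPKM. CDH1 had between 0.615 and 1.98 FPKM and EPCAM between 4.03 and 12.3 FPKM, so not all 4 were absent. Transcripts of 15 human and 15 mouse members share at least 200 bases at 95% identity or more with another annotated gene, often a pseudogene or an overlapping gene, and their values are uncertain to that extent. Among those named below these are PSMA6, PSMC1, PSMC6, PSMD1, PSMD9, PSMD10, PSMD12, PSME2, PSME3 and PSMG4, and Psmb5, Psmb7, Psmd2, Psmd11, Psmd13, Psme1, Psme2 and Psmg3.

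The sequences just before the start of 5 human members are shown because these genes were low together in 2 of the lines described later. They are RefSeq sequences of GRCh38.p14, 5′ to 3′ on the strand of the gene, and each covers the 250 bases before an annotated start. Capitals mark 4 motifs searched on both strands, TGACNNNGC (an antioxidant response type element), CCAAT (an NF-Y box), GGCGGG (an SP1 box) and the core of the interferon-stimulated response element (2 copies of GAAA with 2 bases between them), of which the last was added after the promoters had been read. The antioxidant type element and the SP1 box overlap in PSME1.
PSME1, chr14:24135944-24136193, plus strand: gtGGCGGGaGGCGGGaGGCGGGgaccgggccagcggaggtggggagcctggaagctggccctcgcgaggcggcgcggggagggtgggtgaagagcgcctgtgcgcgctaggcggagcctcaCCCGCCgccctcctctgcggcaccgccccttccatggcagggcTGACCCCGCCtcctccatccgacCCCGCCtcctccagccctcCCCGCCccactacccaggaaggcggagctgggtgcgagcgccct
PSME2, chr14:24146611-24146860, minus strand: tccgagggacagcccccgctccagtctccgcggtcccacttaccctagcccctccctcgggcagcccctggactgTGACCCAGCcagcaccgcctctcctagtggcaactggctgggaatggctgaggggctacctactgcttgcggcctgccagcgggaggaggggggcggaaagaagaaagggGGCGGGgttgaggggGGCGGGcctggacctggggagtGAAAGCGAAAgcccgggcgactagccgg
PSMB5, chr14:23035221-23035470, minus strand, the first of its 2 entries: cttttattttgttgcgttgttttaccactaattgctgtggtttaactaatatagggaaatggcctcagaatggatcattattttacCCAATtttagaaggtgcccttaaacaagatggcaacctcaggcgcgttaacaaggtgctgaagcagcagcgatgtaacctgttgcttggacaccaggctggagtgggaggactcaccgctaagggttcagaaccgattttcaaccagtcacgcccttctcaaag
PSMA3, chr14:58244593-58244842, plus strand: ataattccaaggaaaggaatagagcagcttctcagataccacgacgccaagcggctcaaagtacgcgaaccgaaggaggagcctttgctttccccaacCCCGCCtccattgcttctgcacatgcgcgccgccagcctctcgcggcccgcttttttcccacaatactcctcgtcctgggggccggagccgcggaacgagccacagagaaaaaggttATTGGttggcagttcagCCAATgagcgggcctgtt
PSMA6, chr14:35292067-35292316, plus strand, the first of its 2 entries: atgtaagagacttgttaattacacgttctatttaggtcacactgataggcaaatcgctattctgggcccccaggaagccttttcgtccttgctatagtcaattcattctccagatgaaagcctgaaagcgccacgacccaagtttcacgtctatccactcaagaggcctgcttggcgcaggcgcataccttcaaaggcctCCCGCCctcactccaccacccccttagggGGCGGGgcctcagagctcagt
PSME1 and PSME2 encode the subunits of one activator and lie beside each other. From 250 bases before to 50 bases after the start, both held the antioxidant type element, the SP1 box and the interferon core, which in PSME1 lies after the start and so outside the stretch shown. PSMA3 held the NF-Y box and the SP1 box, PSMA6 held the SP1 box, and PSMB5 held the NF-Y box. Over 39 members with an entry and their 47 promoters, the antioxidant type element was found in 14 promoters, or 29.8%, against 13.3% of all 35116 promoters. The SP1 box was found in 70.2% of the members' promoters and 45.0% of all, the NF-Y box in 40.4% and 34.6%, and the interferon core in 10.6% and 3.57%. A match is a description of letters, and several members have more than 1 start.

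In the lines the members were among the well expressed genes, with means over the 7 libraries from 20.7 FPKM (PSME4) to 287 FPKM (PSMA7) and a median of 88.3, where the median over all tested genes was 11.1. The alpha ring spanned 35.6 FPKM (PSMA5) to 287 FPKM. In the beta ring the catalytic subunits PSMB5, PSMB6 and PSMB7, which carry the chymotrypsin-like, caspase-like and trypsin-like sites, had 121, 166 and 163 FPKM, and PSMB4 reached 249 FPKM while PSMB2 had 38.8. The ATPases of the 19S base had a median of 90.5 FPKM, and the largest base subunits PSMD1 and PSMD2 differed, with 44.7 and 266 FPKM. The 19S lid, which holds the deubiquitinase PSMD14, had a median of 76.6 FPKM. The chaperones of 19S assembly (PSMD5, PSMD9, PSMD10) and of 20S assembly (PSMG1 to PSMG4) lay lower, with medians of 28.7 and 45.8 FPKM. Subunits that stand in equal number in one complex thus differed in mRNA level.

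In the tumors the means ran from 2.99 FPKM (Psmg3) to 112 FPKM (Psmb4), with a median of 44.8 where all tested genes had 5.95. Psmf1, the inhibitor PI31, had 4.90 FPKM there and PSMF1 33.6 in the lines. Psmd9 had 4.43 FPKM in the tumors. The levels of the 43 members in both species, on the log2(FPKM + 1) scale, had a Pearson correlation of 0.67 across genes, and the 2 tables were processed separately.

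**Figure D1:**
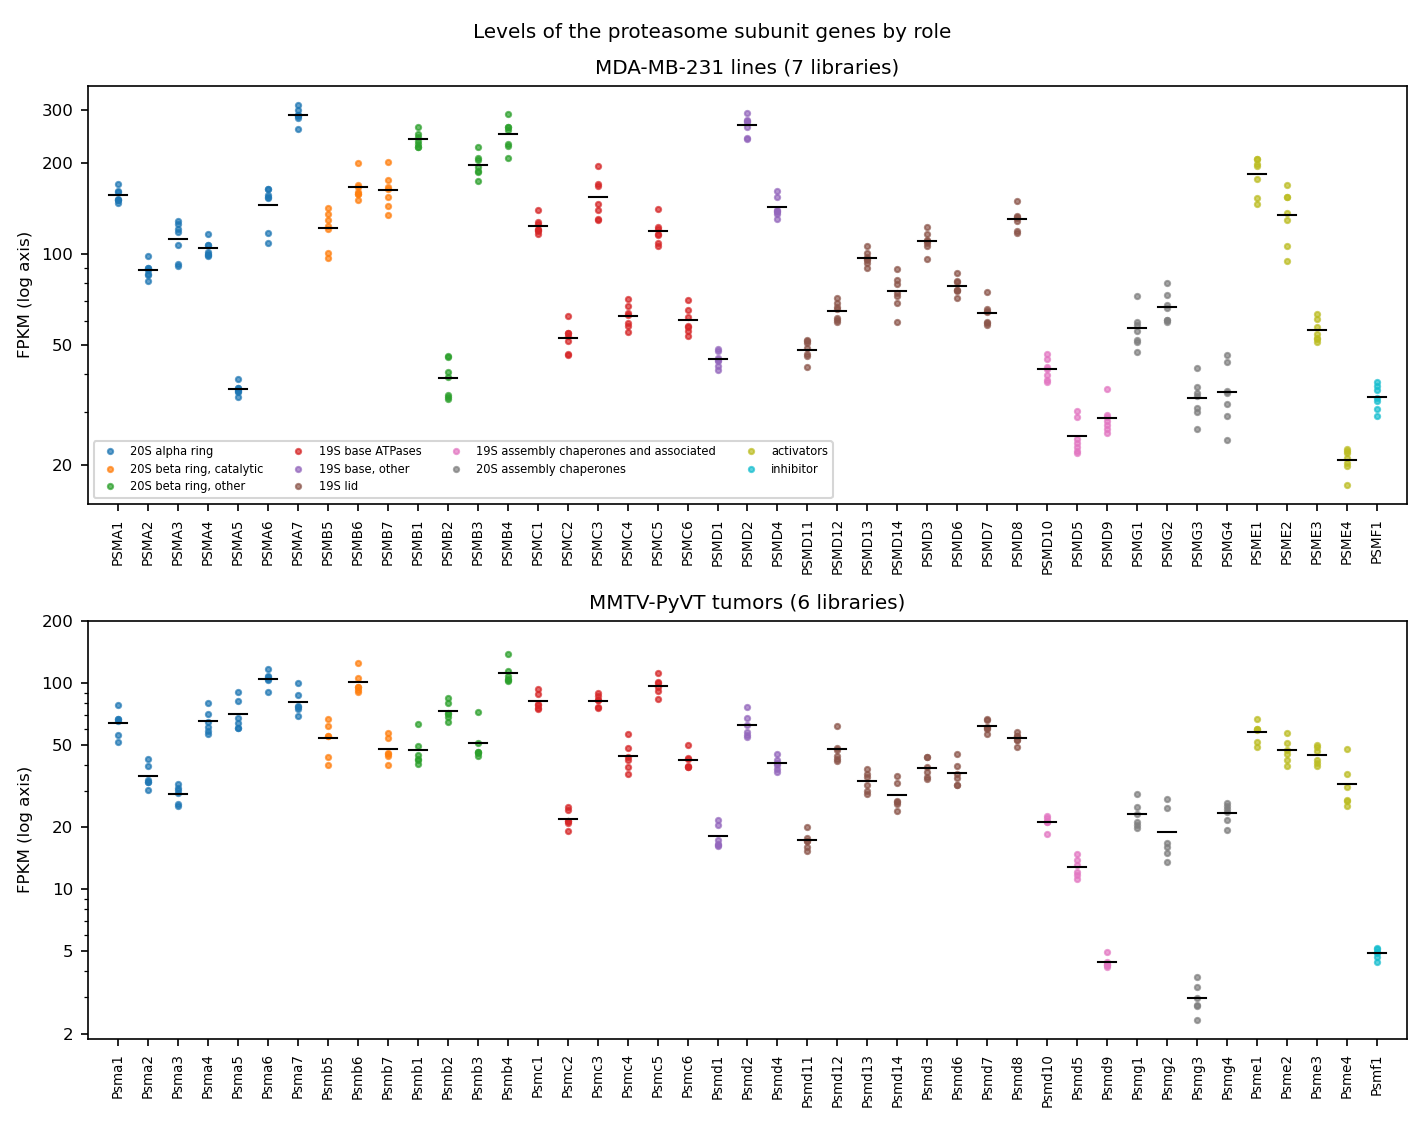
FPKM of the 43 tested members by role in the 7 MDA-MB-231 libraries (upper panel) and the 6 tumor libraries (lower panel), on log axes; each point is a library and each bar the mean. The points of a member lie close together beside the differences between members, with PSME4 (20.7 FPKM) and Psmg3 (2.99 FPKM) the lowest.

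In median, the members varied less between the lines than genes with at least 10 FPKM, and about as much as those between the tumors. Their coefficient of variation over the 7 lines had a median of 9.09%, with 4.30% for PSMA5 and 22.4% for PSMG4 at the ends, where 6724 genes with at least 10 FPKM had a median of 12.9%. Over the 6 tumors the median was 12.0% for members and 12.8% for the 6150 genes with at least 10 FPKM, with 5.77% for Psmd8 and 30.3% for Psmg2 at the ends. The members took between 0.876% and 0.940% of the summed FPKM of a line and between 0.586% and 0.717% of that of a tumor.

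For Trim11+/- against Trim11+/+ tumors no member passed an adjusted p of 0.05 in limma, where 0.00577% of the 17328 genes tested did. At an unadjusted p under 0.05, 1 member was higher and 0 were lower, against 3.65% and 3.29% of all genes. The median log2 difference over the 43 members was 0.03, with 25 of 43 above 0, and that over all genes was −0.00 with 49.1% above 0. Standard errors of the members ran from 0.09 to 0.29, and the smallest adjusted p of a member was 0.635. Values of all tested genes had no overlap between the genotypes in 6.6% upward and 6.78% downward, and this held for 3 members upward (Psme4, Psmd11, Psmd12) and for 1 downward (Psme1). No member differed by 1.5 times with an unadjusted p under 0.05, where 3.61% of all genes did.

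The activator Psme4, which encodes PA200, a cap linked to histone degradation, had 26.9, 27.0 and 25.5 FPKM in the Trim11+/+ tumors and 31.5, 36.3 and 47.8 FPKM in the Trim11+/- tumors. All 3 Trim11+/- tumors lay above all Trim11+/+ tumors, and the third was highest. The log2 difference was 0.51 (SE 0.16, unadjusted p = 0.0152, adjusted p = 0.635 by limma), and without Trim11+/- tumor 3 it was 0.34 (adjusted p = 0.498). Psme4 was the member with the largest difference, at 1.46 times the mean of Trim11+/+. The lowest was Psmg3, a chaperone of alpha ring assembly, at 0.814 times with 59 to 119 reads per tumor, and its groups overlapped.

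The other lid and core subunits with the smallest p-values were all higher. Psmd12, a lid subunit, had 42.8, 44.4 and 42.1 FPKM in Trim11+/+ and 48.2, 47.3 and 62.2 FPKM in Trim11+/- tumors. Its groups did not overlap, and its log2 difference of 0.27 (SE 0.13) had an adjusted p of 0.719 in limma. Psma1 of the alpha ring had 66.7, 56.2 and 52.1 FPKM against 67.3, 65.7 and 78.3 FPKM, with overlap and a log2 difference of 0.27. Psmd11 of the lid had 15.4, 16.1 and 17.1 FPKM against 17.2, 17.7 and 20.2 FPKM, a narrow gap. Psmb1 had 44.7, 42.3 and 40.7 FPKM against 42.9, 49.6 and 63.3 FPKM. In all 4 genes Trim11+/- tumor 3 was the highest of the 6 tumors.

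Psme1, a subunit of the PA28 activator that interferon induces, had 59.8, 66.7 and 59.8 FPKM in the Trim11+/+ tumors and 59.0, 49.2 and 51.8 FPKM in the Trim11+/- tumors. The lowest Trim11+/+ and the highest Trim11+/- tumor lay close together, the log2 difference was −0.22 (SE 0.11) and the adjusted p by limma was 0.728. Its partner Psme2 had 42.3, 57.3 and 51.3 FPKM against 47.3, 45.6 and 39.7 FPKM, with overlap. Psme2b, a near copy with 99.4% identity to Psme2, had a mean of 24.9 ± 2.43 (SD, n = 3) against 24.4 ± 1.52 FPKM (SD, n = 3), and reads of both genes may have been split. Psme3, the nuclear PA28 gamma, had 46.1 ± 3.29 against 43.6 ± 5.69 FPKM (SD, n = 3 each).

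The immunoproteasome subunits, which share the interferon control of Psme1 and Psme2, were lower in mean as well. Psmb8 had 21.5, 39.6 and 23.0 FPKM against 23.5, 21.3 and 18.6 FPKM, and the log2 differences were −0.35 for Psmb8, −0.50 for Psmb9 and −0.32 for Psmb10, with adjusted p-values of 0.804, 0.746 and 0.808 in limma. Of 15 genes of the interferon response, none was above 0 and 6 were lower at an unadjusted p under 0.05, with a median of −0.60 and no adjusted p under 0.05. Tested markers of cell types other than epithelium had log2 differences below 0 in the same libraries, apart from 1 of 4 adipocyte markers. Of 5 epithelial markers, 3 were above 0. The 6 macrophage markers summed to between 282 and 367 FPKM in Trim11+/+ and between 258 and 288 FPKM in Trim11+/- tumors, and 0 of 6 had a log2 difference above 0. The 6 T cell markers, of which 2 were tested, summed to between 1.89 and 4.43 against between 0.984 and 2.43 FPKM, with Cd3e and Cd3g at 0 in some tumors. The 4 skeletal muscle markers summed to between 18.1 and 196 FPKM in Trim11+/+ and between 1.64 and 223 FPKM in Trim11+/- tumors. The 4 adipocyte markers summed to between 14.9 and 117 against between 8.56 and 83.0 FPKM. These muscle and adipocyte sums differed widely between tumors of one genotype. The part of these cell types in the members' values was not tested. In these bulk samples fewer cells of a type and less RNA per cell cannot be told apart.

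The catalytic subunits overlapped between genotypes. Psmb5 had 67.2, 55.5 and 43.9 FPKM against 55.2, 40.1 and 61.7 FPKM. Psmb6 had 90.6, 92.7 and 96.1 FPKM against 106, 95.4 and 125 FPKM, and Psmb7 had 54.1, 46.0 and 40.1 FPKM against 44.4, 45.3 and 57.0 FPKM. The log2 differences were −0.08, 0.21 and 0.06, with standard errors of 0.21, 0.12 and 0.15. The core chaperones had −0.02 (Psmg1), −0.09 (Psmg2), −0.22 (Psmg3) and 0.01 (Psmg4), and the inhibitor Psmf1 had −0.05. None of the adjusted p-values of these genes was under 0.05.

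The members also differed between tumors of one genotype. Trim11+/- tumor 3 held the highest value of 28 of the 43 members, and Trim11+/+ tumor 1 held that of 9. On the log2(FPKM + 1) scale, centred on the mean of each gene, the median over the members was 0.18 in Trim11+/- tumor 3 and 0.10 in Trim11+/+ tumor 1, and between −0.10 and −0.05 in the other 4 tumors. The cytosolic chaperonin (8 genes) and proliferation genes (13 genes) were high in the same libraries, with medians of 0.25 and 0.28 in Trim11+/- tumor 3 and of 0.19 and 0.47 in Trim11+/+ tumor 1. The interferon list had its lowest median, −0.62, in Trim11+/- tumor 3 and its highest, 0.65, in Trim11+/+ tumor 2, the tumor with the highest Psme1, Psme2, Psmb8, Psmb9 and Psmb10. The part of proliferation and interferon genes in the members' values was not tested. Without Trim11+/- tumor 3, the median log2 difference of the members was −0.05 in place of 0.03.

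**Figure D2:**
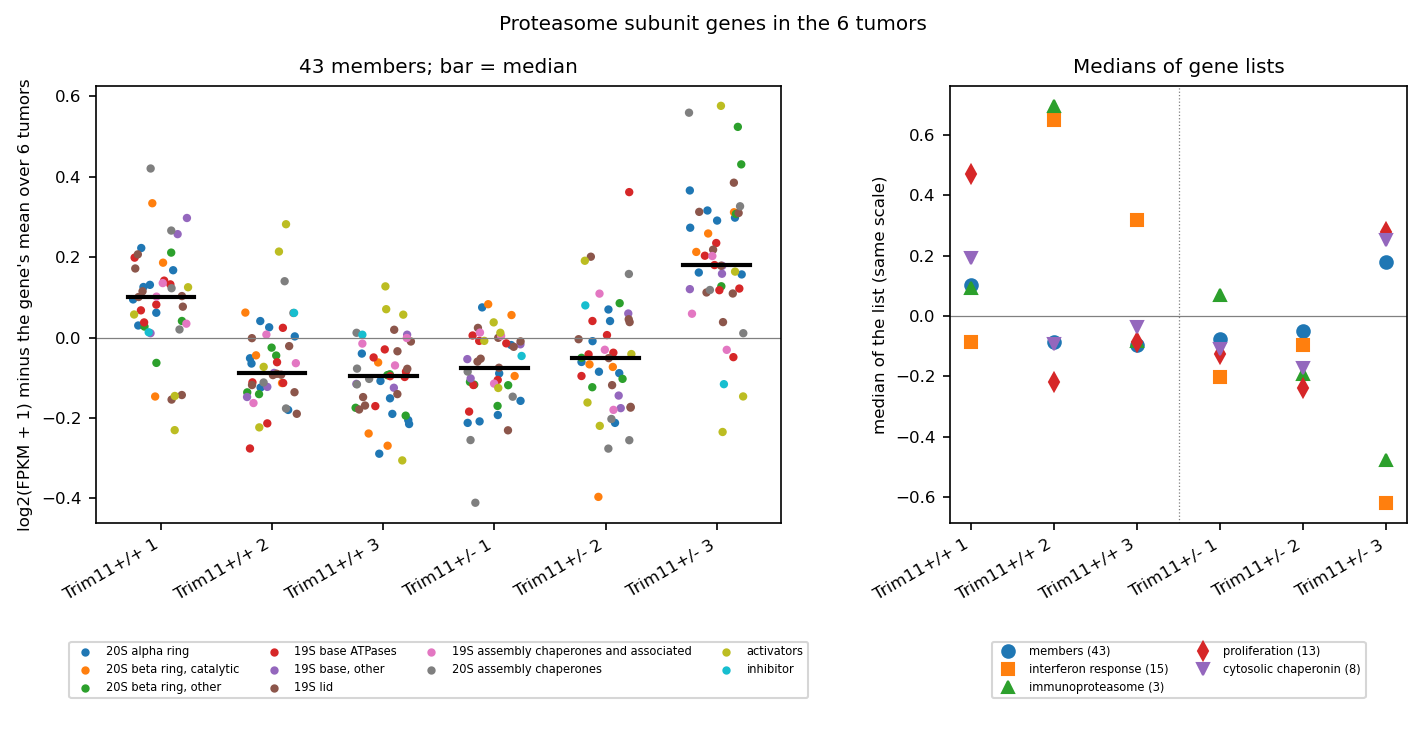
Left, log2(FPKM + 1) of each of the 43 members minus its mean over the 6 tumors, by tumor and coloured by role, with bars at the medians; right, the medians of the members and of 4 other gene lists on the same scale, with a dotted line between genotypes. The members sit highest in Trim11+/- tumor 3 (0.18) and Trim11+/+ tumor 1 (0.10), and the interferon and immunoproteasome lists sit highest in Trim11+/+ tumor 2.

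The members' differences between genotypes were set beside those of the genes around them, a comparison chosen after seeing the data. For each member, the median log2 difference was taken over other genes with a mean of at least 5 FPKM that start within 5 Mb in mm10. Across the 43 members the member's difference and its neighbours' median had a Pearson correlation of 0.63, a description over genes that share libraries and, for some, a chromosome. The 3 members without overlap upward all lie on chromosome 11, which also carries Trim11. Of the 8 members there, 6 had a difference above 0, with a median of 0.18, and the other 35 members had a median of 0.01. Centred on each gene's mean, the median of the 8 members was 0.27 in Trim11+/- tumor 3, −0.01 and −0.04 in the other Trim11+/- tumors and between −0.12 and −0.06 in the Trim11+/+ tumors. Without Trim11+/- tumor 3 the median difference of the 8 members was 0.10, with 5 above 0, and that of the other 35 was −0.09. Non-member genes of chromosome 11 with at least 10 FPKM (639 genes) had a median of 0.10, with no overlap upward for 14.7% of them, against −0.01 and 6.67% on the other chromosomes. Their median by tumor was 0.09, −0.05 and 0.11 in Trim11+/- and −0.12, 0.00 and −0.02 in Trim11+/+, so Trim11+/- tumor 2 lay below 2 of the Trim11+/+ tumors. Without Trim11+/+ tumor 1 or Trim11+/- tumor 3 the median difference of these genes was 0.06, and without Trim11+/- tumor 2 it was 0.15. Chromosomes 7 and 17 had medians of 0.12 and 0.10, with no overlap upward for 15.4% and 20.9% of their genes, both above chromosome 11. Psma1, Psmc4 and Psmd13 of chromosome 7 and Psmb1 of chromosome 17 were among the members with the largest positive differences. Psmc4, a base ATPase, and Psmd13 of the lid were highest in Trim11+/- tumor 2, with 56.9 and 38.5 FPKM, and the median of chromosome 7 genes was highest in that tumor too, at 0.17. Psme4 lay well above its neighbours, whose median was 0.06. Without the chromosome 11 members the correlation over 35 members was 0.65, and with each tumor left out in turn that over 43 members ran from 0.51 to 0.67.

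In the lines the TRIM11 guide was tested in an additive model with the KDM5C guide, 4 lines with a TRIM11 guide against 3 without. No member passed an adjusted p of 0.05 in limma and neither did any of the 12636 genes tested, which is 0% called. At an unadjusted p under 0.05, 1 member was higher and 2 were lower, where 5.19% and 5.48% of all genes were. The median log2 difference of the members was 0.04, with 26 of 43 above 0, and that of all genes was −0.01. The groups did not overlap for 6 members upward and 2 downward, beside 4.2% and 4.55% of all genes. A difference of 1.5 times with an unadjusted p under 0.05 was found for 0 members and 3.93% of all genes.

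PSMD14, the lid deubiquitinase that removes ubiquitin chains, had 72.4 FPKM in Control, 68.8 and 59.6 in the KDM5C-KD lines, 74.3 and 81.9 in the TRIM11-KD lines and 79.6 and 88.8 in the DKD lines. All 4 lines with a TRIM11 guide lay above the 3 without, including the libraries labelled TRIM11-KD 1 and DKD 1, and DKD 2 was highest. The log2 difference was 0.28 (SE 0.11, unadjusted p = 0.0365, adjusted p = 0.454 by limma). PSMG3 had 41.9 FPKM in Control, 36.2 and 34.5 in KDM5C-KD, 29.9 and 30.9 in TRIM11-KD and 26.3 and 33.7 in DKD. All 4 lines with a TRIM11 guide lay below the 3 without, with a log2 difference of −0.32 (SE 0.11, adjusted p = 0.448). Of the mouse counterparts, Psmd14 had 28.4 ± 6.06 FPKM in Trim11+/- and 28.7 ± 3.57 FPKM in Trim11+/+ tumors (SD, n = 3 each), and Psmg3 was the lowest member of the tumors, with a log2 difference of −0.22 (adjusted p = 0.797 by limma).

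The lid as a group had 7 of 8 members above 0 for the TRIM11 guide, with a median of 0.12, where 48.5% of all genes were above 0. Above 0 were also 5 of 6 base ATPases, 3 of 3 other base subunits and 3 of 4 core chaperones. In the alpha ring 3 of 7 were above 0, and of the other beta subunits 2 of 4. Fewer were above 0 among activators (1 of 4), catalytic subunits (1 of 3) and 19S assembly chaperones (1 of 3). The inhibitor PSMF1 was below 0. Of these, PSME1, PSME2 and PSMB5 were lowest in the guide 2 lines, as given below. The lid subunits PSMD12, PSMD13 and PSMD14 had no overlap between lines with and without the guide. PSMD12 had 61.2 FPKM in Control, 60.4 and 59.3 in KDM5C-KD, 71.3 and 66.9 in TRIM11-KD and 65.8 and 68.6 in DKD. PSMD5, which holds base subunits before assembly, had 22.9, 22.3 and 22.0 FPKM without the guide and 24.4, 28.9, 23.7 and 30.2 FPKM with it. PSMD10, the base chaperone gankyrin, was lower in each, with 44.7, 42.1 and 46.4 FPKM without and 41.4, 37.6, 38.3 and 39.6 FPKM with the guide. These log2 differences were 0.17, 0.24 and −0.18, with adjusted p-values of 0.496, 0.506 and 0.506 by limma. None passed the test, so the counts describe these 7 lines.

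Some members differed between the lines with TRIM11 guide 1 and those with TRIM11 guide 2. PSME2 had 168 FPKM in Control and 136 and 154 in KDM5C-KD, 155 and 129 in the libraries labelled TRIM11-KD 1 and DKD 1, and 106 and 94.7 in TRIM11-KD 2 and DKD 2. PSMA6, an alpha subunit, had 164, 156 and 154 FPKM without a TRIM11 guide, 164 and 154 with guide 1 and 117 and 109 with guide 2. The catalytic PSMB5 had 141, 124 and 121 FPKM without, 136 and 130 with guide 1 and 100 and 97.2 with guide 2. In all 3 genes both guide 2 lines lay below all other lines, and the guide 1 lines lay near those without a guide. PSME1 had 146 to 153 FPKM in the guide 2 lines and 177 to 206 in the other 5, and PSMA3 had 91.4 to 92.8 against 107 to 128.

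A model with a term for each TRIM11 guide was fitted after this had been seen, so its p-values lend the pattern no independent weight. For guide 2 against guide 1, 0% of all genes passed an adjusted p of 0.05. The members' median was 0.10, with 32 of 43 above 0, where 50.6% of all genes were. At an unadjusted p under 0.05, 4 members were higher and 5 lower, beside 5.88% and 5.63% of all genes. The lines did not overlap for 16 members upward (22.2%) and 7 downward (22.4%), and PSMG4 alone differed by 1.5 times at an unadjusted p under 0.05 (5.75%). The lower members had log2 differences of −0.49 (PSMA6, SE 0.09), −0.49 (PSME2, SE 0.11), −0.42 (PSMB5, SE 0.10), −0.37 (PSMA3, SE 0.12) and −0.35 (PSME1, SE 0.10), with adjusted p-values between 0.213 and 0.336 in limma. The 4 members that were higher were PSMG4, PSMC3, PSMD5 and PSMG1. PSMG4, a chaperone of alpha ring assembly, had 24.2 and 29.1 FPKM with guide 1, 43.9 and 46.2 with guide 2 and 31.7 to 35.0 in the other 3 lines. Its log2 difference was 0.74 (SE 0.11), the largest of any member, with an adjusted p of 0.184. PSMC3, a base ATPase, had 129 and 140 FPKM with guide 1 and 171 and 196 with guide 2.

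**Figure D3:**
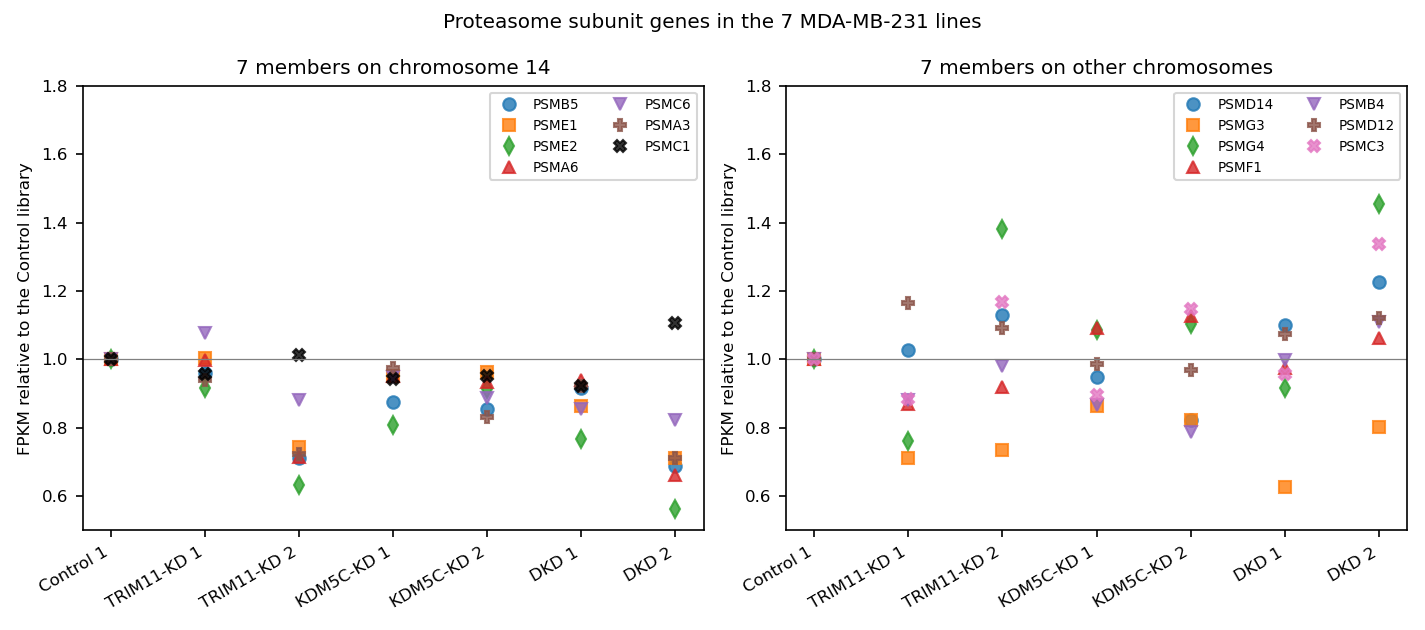
FPKM relative to the Control library for 7 members on chromosome 14 (left) and 7 members on other chromosomes (right) in each of the 7 lines; each symbol is 1 gene and the grey line is the Control level. In TRIM11-KD 2 and DKD 2, 5 of the chromosome 14 members lie under 0.75 of Control, PSMC6 lies at 0.881 and 0.822, and PSMC1 lies at 1.01 and 1.11.

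The 5 lower members share a stretch of chromosome 14. In hg19 they start at 23485752 (PSMB5), 24605372 (PSME1), 24612571 (PSME2), 35747839 (PSMA6) and 58711561 (PSMA3). PSMC6, a base ATPase that starts at 53173896, had 57.3 and 53.4 FPKM in the guide 2 lines and 55.6 to 70.1 in the others. PSMC1, which starts at 90722871 near the other end of the chromosome, had 127 and 139 FPKM in the guide 2 lines, and both lay above the other lines, at 116 to 126 FPKM. Of 127 other genes with at least 5 FPKM before 65 Mb, 122 had a lower mean in the guide 2 lines than in the other 5, with a median log2 difference of −0.40, and 61.4% lay below all other lines in both, against 10.3% of 7876 genes over the genome. From 65 Mb on, 124 genes had a median of 0.06, though the first genes there, MAX, FUT8 and GPHN, were at −0.44, −0.93 and −0.47. The boundary at 65 Mb was set after the values had been seen, so the contrast across it has no independent weight. Over whole chromosomes, the median was −0.16 for chromosomes 14 and 8, −0.15 for 6 and −0.11 for 16. The highest was 0.15, for chromosome 9. The median of the 127 genes, centred on each gene's mean, was −0.25 in TRIM11-KD 2 and −0.31 in DKD 2 and between 0.01 and 0.17 in the other 5 lines. The part of this stretch in the members' values was not tested.

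**Figure D4:**
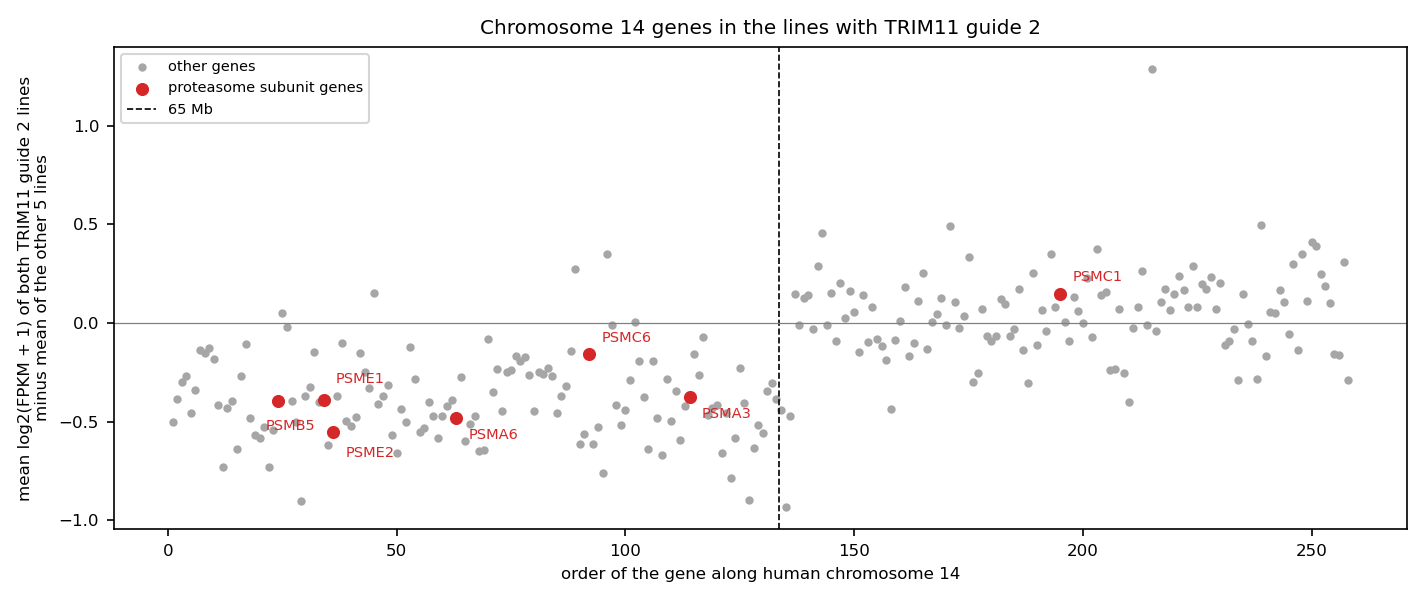
Difference between the mean log2(FPKM + 1) of both TRIM11 guide 2 lines and the mean of the other 5 lines for genes with at least 5 FPKM, in their order along human chromosome 14; red points are members and the dashed line is 65 Mb in hg19. Genes left of the line have a median of −0.40 and those right of it 0.06, and the 6 members left of it all lie below 0. The line was placed after the values had been seen.

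Members on other chromosomes were set beside their neighbours in the same way. PSMB7 and PSMD5 on chromosome 9 differed by 0.30 and 0.35 between guide 2 lines and the other 5, and the medians of their neighbours within 5 Mb were 0.37 and 0.28. PSMB7 had 176 and 201 FPKM in the guide 2 lines and 135 to 166 in the others. PSMG4 on chromosome 6 had 0.54 and its neighbours −0.05. Across the 43 members, a member's difference and its neighbours' median had a Pearson correlation of 0.86, and of 0.57 over the 37 without the 6 members of the chromosome 14 stretch, as a description over genes of the same libraries. The 6 members of the stretch had medians of −0.26 in TRIM11-KD 2 and −0.31 in DKD 2, centred on each gene's mean. The other 37 had 0.01 and 0.15, and DKD 2 held the highest value of 23 of the 43 members.

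**Figure D5:**
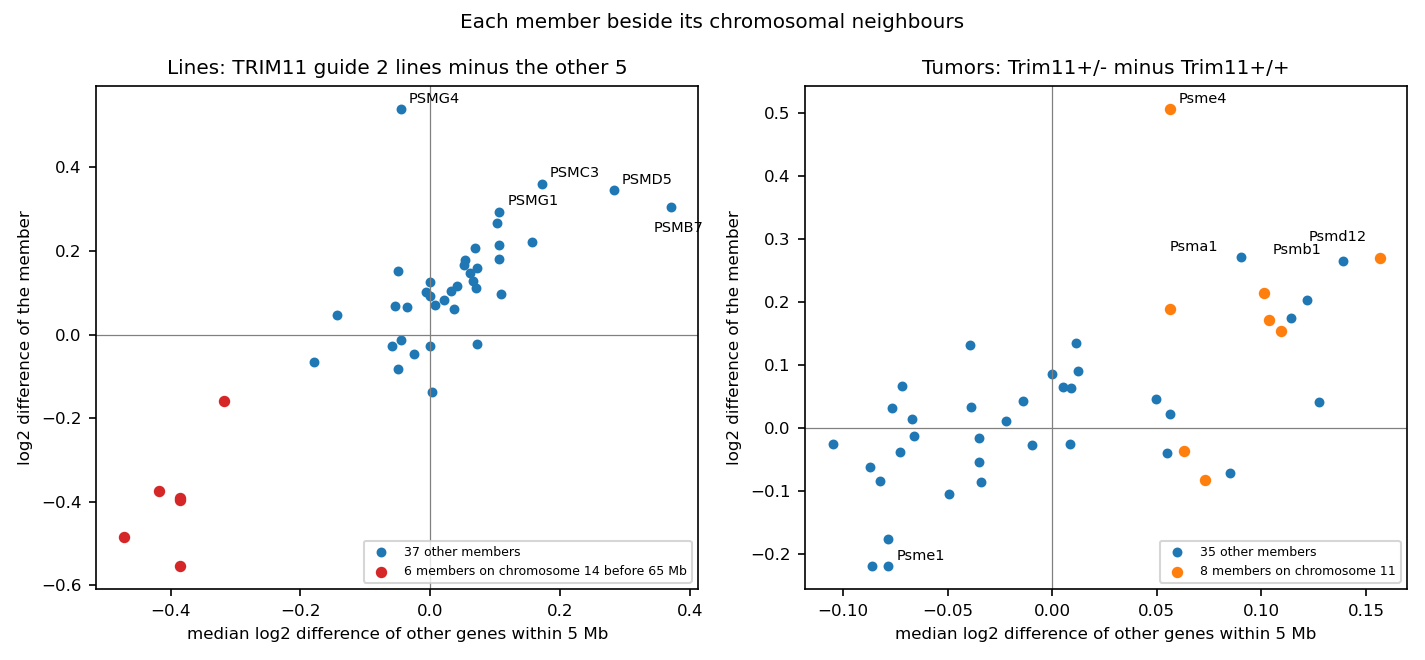
Log2 difference of each member (vertical) against the median log2 difference of other genes that start within 5 Mb (horizontal), for TRIM11 guide 2 lines minus the other 5 lines (left) and for Trim11+/- minus Trim11+/+ tumors (right). The correlations over 43 members are 0.86 and 0.63, and PSMG4 and Psme4 lie apart from their neighbours.

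For the KDM5C guide, 4 lines with against 3 without, no member passed an adjusted p of 0.05 in limma (0.00791% of all genes did), and none had an unadjusted p under 0.05 in either direction, against 5.87% upward and 5.18% downward of all genes. The median was −0.01, with 20 of 43 above 0. The inhibitor PSMF1 had the smallest p, with 33.3, 29.0 and 30.7 FPKM without the guide and 36.4, 37.6, 32.5 and 35.4 FPKM with it, a log2 difference of 0.17 (SE 0.08, adjusted p = 0.505). The lines overlapped by 1 value, that of DKD 1. PSME4 had no overlap downward, where 5.07% of all genes had none, with 22.0, 22.1 and 22.5 FPKM without and 19.9, 20.3, 17.2 and 21.1 FPKM with the KDM5C guide. It was the only member whose groups did not overlap, with none upward (5.64% of all genes), and 0 members differed by 1.5 times at an unadjusted p under 0.05 (3.5%).

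Whether the TRIM11 guide difference itself differed with the KDM5C guide was tested by the product of both terms. No member passed an adjusted p of 0.05 (0.0158% of all genes) or an unadjusted one (3.03% upward, 2.46% downward), and PSMB4, a structural beta subunit, had the smallest p, with 0.45 (SE 0.20, adjusted p = 0.879 by limma). PSMB4 had 263 FPKM in Control, 231 and 257 in TRIM11-KD, 227 and 207 in KDM5C-KD and 262 and 291 in DKD. Over the members the median of the product term was 0.12, with 32 of 43 above 0. Over all genes it was 0.01, with 51.8% above 0. The members share libraries, so these counts are a description.

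Among the 6 knockdown lines, KDM5C-KD and DKD were compared, which differ by the TRIM11 guide and in part by the KDM5C guide, since KDM5C-KD 1 carried KDM5C guide 1 and both DKD lines carried guide 2. TRIM11 mRNA was not below that of KDM5C-KD in the library labelled DKD 1. No member passed an adjusted p of 0.05 in limma, with 0% of all genes called. The members' median was −0.08, with 14 of 43 above 0, where 49.9% of all genes were. The groups did not overlap for 6 members upward and 15 downward, beside 22.1% and 21.2% of all genes, and 0 members differed by 1.5 times at an unadjusted p under 0.05 (6.8%). At an unadjusted p under 0.05, PSMD14, PSMB4 and PSME3 were lower in KDM5C-KD (5.88% of all genes) and none was higher (5.83%), with log2 differences of −0.39, −0.35 and −0.26. In all 3 genes both KDM5C-KD lines lay below both DKD lines. PSME3 had 52.6 and 50.9 FPKM in KDM5C-KD and 60.7 and 63.3 in DKD. KDM5C-KD against TRIM11-KD gave 0.00792% of genes at an adjusted p under 0.05, none of them a member. The members' median there was −0.03, with 18 of 43 above 0 (51.2% of all genes). PSMF1 was higher at an unadjusted p under 0.05 (5.61% of all genes), with 36.4 and 37.6 against 29.0 and 30.7 FPKM, a log2 difference of 0.30 (SE 0.11, adjusted p = 0.494), and no member was lower (4.27%). The lines did not overlap for 3 members upward (22.6%) and 13 downward (21.0%), and 0 differed by 1.5 times (5.44%). DKD against TRIM11-KD gave no member at an adjusted p (0.00792%) or an unadjusted p under 0.05 (3.78% upward, 3.25% downward). Its members' median was 0.06, with 27 of 43 above 0 (52.2% of all genes). Without overlap were 10 members upward (21.8%) and 3 downward (19.3%), and 0 differed by 1.5 times (3.3%). The 3 comparisons share lines.

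Against the single Control library there is no spread, and values were counted by size alone. No member was at least 1.5 times above Control in both lines of a knockdown, where 3.25% of genes were in TRIM11-KD, 5.22% in KDM5C-KD and 5.71% in DKD. No member was higher at 1.2 times in both lines of a group either (10.2%, 13.2% and 15.1%), and none was at least 1.5 times below, against 2.58%, 3.97% and 4.87%. At 1.2 times, PSMB6, PSMD9 and PSMG3 were lower in both TRIM11-KD lines (10.7% of all genes) and PSMB6, PSMD9, PSME2 and PSMG3 in both DKD lines (14.6%), while PSMD9 alone was lower in both KDM5C-KD lines (13.4%). PSMD9, a chaperone of base assembly, had 35.6 FPKM in Control and 25.6 to 29.2 in the other 6 lines. PSMB6 had 200 FPKM in Control and 150 to 170 in the others. Over the 43 members, the ratio to Control ran from 0.713 to 1.16 in the library labelled TRIM11-KD 1, from 0.632 to 1.38 in TRIM11-KD 2, from 0.762 to 1.21 and 0.789 to 1.29 in the KDM5C-KD lines, from 0.627 to 1.17 in the library labelled DKD 1 and from 0.562 to 1.46 in DKD 2. The medians were between 0.941 and 1.09.

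Of 15 listed other 26S subunits and assembly factors, 12 were tested in the tumors and 13 in the lines. None passed an adjusted p in any comparison, and at an unadjusted p under 0.05 none was higher or lower for Trim11+/- or for the TRIM11 guide, while ZFAND2A, an arsenite-induced factor that binds the proteasome, was lower for the KDM5C guide (log2 difference −0.53, adjusted p = 0.425 by limma). Among genes that control proteasome transcription, NFE2L1 had 65.8 ± 5.48 FPKM in lines with (SD, n = 4) and 66.6 ± 1.31 FPKM in lines without the TRIM11 guide (SD, n = 3). In the tumors Nfe2l1 had 68.5 ± 9.93 against 61.4 ± 8.52 FPKM (SD, n = 3 each). Of the ubiquitin shuttles, Sqstm1, the autophagy receptor p62, was higher in Trim11+/- tumors at an unadjusted p under 0.05, with 105 ± 13.7 against 80.9 ± 12.3 FPKM (SD, n = 3 each, adjusted p = 0.713 by limma), and UBQLN1, a shuttle for ubiquitinated proteins, was higher for the TRIM11 guide, with 61.7 ± 2.74 (SD, n = 4) against 54.6 ± 2.54 FPKM (SD, n = 3, adjusted p = 0.463). The 6 ubiquitin genes had medians of 0.06 in the tumors and, with 4 tested, 0.06 for the TRIM11 guide.

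For a view across species, Psme4 and PSME4 had log2 differences of 0.51 for Trim11+/- and −0.03 for the TRIM11 guide, Psmd12 and PSMD12 had 0.27 and 0.17, and Psme1 and PSME1 had −0.22 and −0.26. Psmg3 and PSMG3 had −0.22 and −0.32. PSME1 was lowest in the lines where other genes of its stretch of chromosome 14 were low together, as given above. The part of that stretch in the PSME1 difference was not tested. These pairs are examples. The signs were the same for 24 of 43 members, and the differences of all 43 had a Pearson correlation of 0.31 across genes. Subunit protein and proteasome activity were not measured in the data used here.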

How the data were processed

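RNA was sequenced from 7 MDA-MB-231 lines and 6 mouse tumors. By the study's methods, reads were trimmed with Cutadapt, aligned with HISAT2 to hg19 or mm10 and turned into FPKM with Cufflinks. The labels name another aligner and mouse build. The tumor values go with exon lengths of an mm10 annotation, as given below, and which aligner made the values was not tested. The deposited FPKM values are the unit used here. The members and lists were chosen with earlier results of these data known. For the tumors, 98.7% of values were whole reads within 0.01 once depth and the exon length in an mm10 annotation were divided out. These reads gave library totals and an alternative fit with limma voom.

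Values were taken as log2(FPKM + 1), so fold changes of low genes are understated. Genes with a mean of at least 0.5 FPKM were fitted in limma 3.58.1 (R 4.3.3) with an intensity trend, and p-values were adjusted by Benjamini and Hochberg over all genes tested. Tumors were compared by genotype. The 7 lines were fitted with a term for the TRIM11 guide and one for the KDM5C guide, with their product for the interaction, and the 6 knockdown lines by group. With a single Control library, ratios to Control have no test. The comparison of TRIM11 guide 2 with guide 1, the chromosome neighbours, the chromosome 11 values with a tumor left out and the interferon core motif were added after seeing the data. The rule named the catalytic subunits, activators, inhibitor, core chaperones, tissue-restricted subunits and, in each comparison, the 6 members with the smallest p in each direction. PSMC1, PSMC6 and other members named for their level or position were chosen after their values were seen. Fits were tested on simulated data. Among the human symbols, 25 that had turned into dates were dropped. The joint human entry of PSME2 and a hairpin RNA inside it was read as PSME2. Near copies were found with BLAST 2.17.0.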

Additional observations from a re-analysis of the deposited data

How the results depend on the processing

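No member passed an adjusted p of 0.05 under any alternative run. The smallest adjusted p of a member by limma was 0.498 in the tumors (Psme4) and 0.149 for the TRIM11 guide (PSME2, without guide 1 lines). It was 0.374 for the KDM5C guide (PSMG1, replicate block without Control) and 0.0880 for guide 2 against guide 1 (PSMG4, without KDM5C-KD line 2). The counts that follow are at an unadjusted p under 0.05, and the causes of the shifts were not tested. The share of all genes called was not counted in the alternative fits. These counts therefore show only how the member counts move, and cannot be set against a general call rate.

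For the TRIM11 guide, 1 member higher and 2 lower became 2 higher with any mean FPKM above 0, 0 higher and 1 lower without the trend, and 1 lower with median ratio scaling, with total FPKM scaling and without the 6 members of the chromosome 14 stretch. DKD against KDM5C-KD in the model with the product of guides gave 3 higher and 0 lower, and TRIM11-KD against Control gave 0 higher, a median of −0.073 and reversed PSMB7 (−0.038), PSME3 (−0.11) and PSME4 (0.023). Without guide 1 lines there were 4 higher and 5 lower, with a median of 0.12 and PSME4 at 0.052. Without guide 2 lines 0 were higher, the median was −0.032, PSMB5 was at 0.023, PSMB7 at −0.0532, PSMG2 at −0.00080 and PSMG4 at −0.31. For the KDM5C guide, 1 member was higher with any mean FPKM above 0. At 1.2 times, 3, 1 and 4 members were lower than Control in TRIM11-KD, KDM5C-KD and DKD, and 1 was lower at 1.5 times in the mean of both DKD lines.

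Same-numbered tumors had correlations of deviations of −0.33, 0.04 and −0.13, so their numbers were not taken to pair them. Same-numbered lines had 0.37 (TRIM11-KD with DKD), 0.27 (KDM5C-KD with DKD) and 0.09 (TRIM11-KD with KDM5C-KD). By design, same-numbered TRIM11-KD and DKD lines share a TRIM11 guide. The main fits by guide presence and by group had no term for this sharing. With a replicate block, the TRIM11 guide gave 5 members higher and 0 lower, the KDM5C guide 1 higher, KDM5C-KD against DKD 5 lower and DKD against TRIM11-KD 1 higher. In the tumors the block left Psme4 at an adjusted p of 0.975.

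Leaving out 1 library at a time, the members' median ran from −0.05 to 0.10 in the tumors, with 1 to 2 higher and 0 to 1 lower, and single genes ran from −0.24 to 0.092 (Psmb5), −0.049 to 0.17 (Psmb7), −0.20 to 0.018 (Psmd2), −0.18 to 0.082 (Psmg1), −0.39 to 0.10 (Psmg2) and −0.0611 to 0.15 (Psmg4). For the TRIM11 guide the median ran from −0.030 to 0.076, with 0 to 3 higher and 0 to 3 lower, PSME4 from −0.095 to 0.044 and PSMG4 from −0.11 to 0.22. For the KDM5C guide the median ran from −0.03 to 0.06 with 0 calls. The median ran from −0.19 to −0.014 for KDM5C-KD against DKD (0 to 1 higher, 0 to 3 lower), from −0.05 to 0.01 against TRIM11-KD (0 higher, 0 to 1 lower), from −0.021 to 0.15 for DKD against TRIM11-KD (0 to 1 higher, 0 lower) and from 0.024 to 0.18 for guide 2 against guide 1 (1 to 6 higher, 2 to 5 lower). A lone line left in a group was taken to vary like the others. The human depth is unknown, and 59 reads for Psmg3 in a tumor limit its value.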
